A study of Mus musculus with 9 samples.

Results

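The genes described here code for integrins, selectins and other adhesion molecules of blood, stromal and endothelial cells. Of 38 listed symbols, 37 were measured by a probe set that the platform annotation pairs with that gene alone, among 19938 genes in all. Selp (P-selectin) was not analysed here. The platelet integrin genes Itga2b and Itgb3 were left out of the list by its rule. Where a gene had several probe sets (bundles of short probes reading 1 transcript region), the one brightest on average across the 9 arrays stood for it. Intensity is the brightness summarised over a probe set.

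Femoral bone marrow of C57BL6 mice was hybridised to 9 arrays in 3 groups of 3. The whole marrow group held 3 wild type mice, 1 to an array. The lineage-negative group was made from 9 other wild type mice, whose marrow was depleted of cells bearing lineage markers and combined, 3 mice to a pool. The leukemia group held 3 ERG transgenic mice with a myeloid leukemia, 1 to an array, with no depletion. Neither the promoter and species of the transgene nor the ages of the mice are given in the sources used here. The leukemic marrow therefore differs from both wild type groups in genotype and disease together, and from the lineage-negative pools also in being whole and unpooled. The mouse Erg probe set did not mark the transgene, since it was lower in leukemia than in whole marrow, with a log2 difference of -0.91 (limma adjusted p = 0.00739).

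Integrins are surface receptors made of 1 alpha and 1 beta subunit that bind matrix proteins or partners on other cells. Talin and kindlin bind the beta tail inside the cell and switch the receptor to its high-affinity state. The beta2 integrins carry neutrophils and monocytes through vessel walls, whereas the alpha4 and beta1 pair holds progenitors to VCAM-1 and fibronectin in the marrow. Selectins catch leukocytes in flowing blood by binding sugars on PSGL-1, and CD44 binds hyaluronan and can also carry selectin ligands.

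Arrays of a group correlated at r = 0.971 to 0.995 over the 19938 genes, with 1 probe set each. The median intensity of all probe sets on an array ran from 32.3 to 34.4. Leukemia 2 stood apart from leukemias 1 and 3 in many of the adhesion genes, so results of the genes where it lay farthest out are given with and without it. Summed intensities of marker genes showed how cell content moved with the groups. The 12 neutrophil markers summed to 39694.2 to 46636.8 in whole marrow, 14262.1 to 23205.6 in leukemia and 657.9 to 2059.5 in the lineage-negative pools. The 11 monocyte and macrophage markers summed to 2316.6 to 3285.4, 1499.6 to 4150.0 and 678.0 to 1160.4 in the same order of groups. The 10 erythroid markers summed to 1435.0 to 4265.4, 5172.6 to 9340.6 and 5225.9 to 7370.0, and the 8 megakaryocyte and platelet markers to 2454.7 to 3569.9, 797.2 to 3000.8 and 5910.9 to 9712.8. The 9 B cell markers summed to 1260.4 to 5397.4, 383.3 to 568.2 and 327.5 to 494.2, the 9 T and NK cell markers to 1226.2 to 1676.3, 516.0 to 690.7 and 802.4 to 1686.2, and the 10 eosinophil, basophil and mast cell markers to 3231.0 to 4833.9, 552.7 to 1663.4 and 5091.2 to 9026.2. In bulk marrow, fewer cells of a type and less RNA per cell cannot be told apart.

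**Figure D1:**
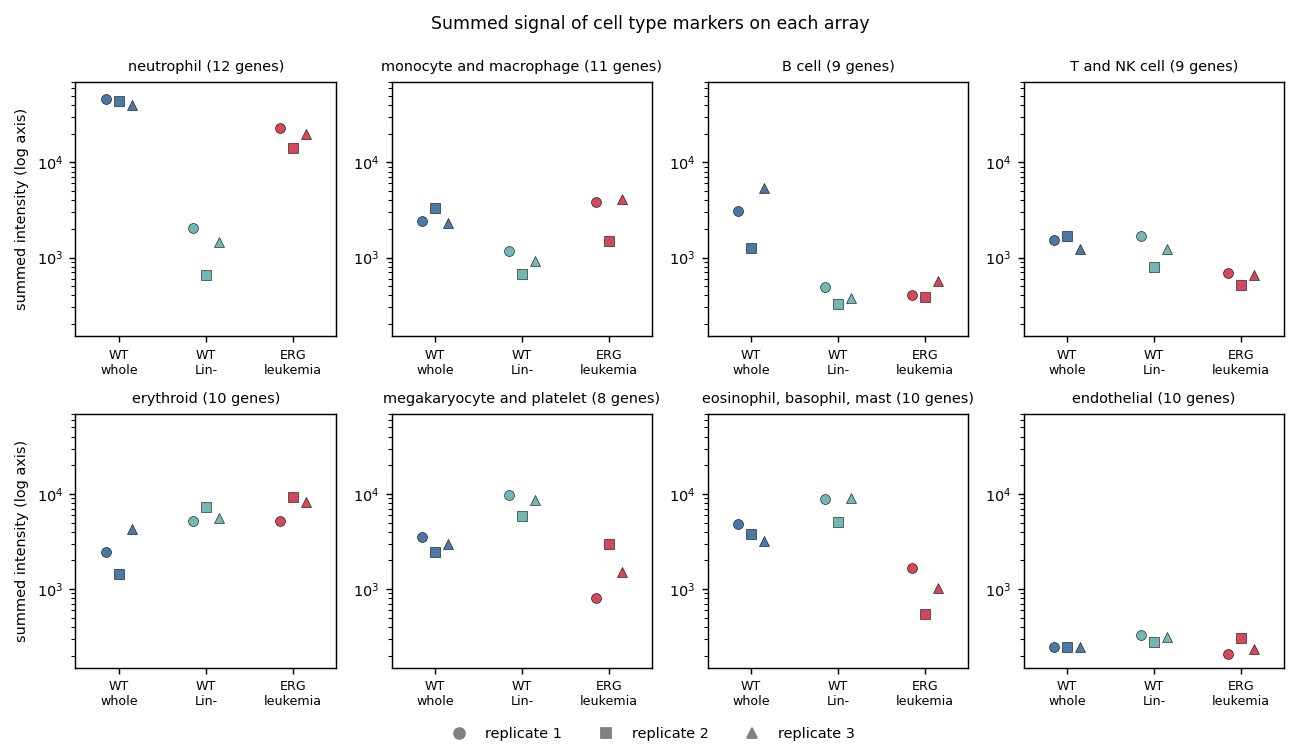
Summed intensity of the markers of 8 cell types on each of the 9 arrays, on a log axis, with 1 point per array coloured by group. Neutrophil markers fall from whole marrow through leukemia to the lineage-negative pools, with the leukemia arrays between 14262.1 and 23205.6.

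Leukemic marrow differed from whole wild type marrow in 13 of the 37 adhesion genes, with 6 higher and 7 lower (limma, Benjamini-Hochberg adjusted p under 0.05 over all 19938 genes). The higher genes were Tjp1, Icam4, Itgb7, Icam2, Itgb1 and Itga4. The lower genes were Itgam, Cd44, Itgb2, Itgal, Selplg, Itga2 and Itga8. Those 13 make 35.1% of the members, beside 24.5% of all genes, of which 14.6% were higher and 9.93% lower. The members' median difference was 0.0005 on the log2 scale, and that of all genes was -0.02. Tjp1, Icam4, Itgb7, Itgam, Itgb2, Itgal and Cd44 passed the threshold in every alternative run for this comparison, including each array left out. All 3 leukemia arrays lay outside the range of the whole marrow arrays in 16 of the 37 genes, beside 37.1% of all genes.

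Against the lineage-negative pools, 6 of 37 genes differed in leukemia. Itgam, Itgb2 and Itgb7 were higher, and Itga2, Itga6 and Esam were lower. This was 16.2% of the members, beside 8.69% of all genes, of which 2.95% were higher and 5.74% lower. The members' median difference was 0.08, beside 0.01 for all genes. The arrays did not overlap in 11 of the 37 genes, beside 27.9% of all genes. Both comparisons share the leukemia arrays. Among all called genes, the share called higher moved with the scaling: it was 59.4% against whole marrow as deposited, 47.7% after centring arrays on their 75th percentile and 47.2% after cyclic loess. Against the lineage-negative pools it was 34.0%, 44.0% and 44.9%.

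**Figure D2:**
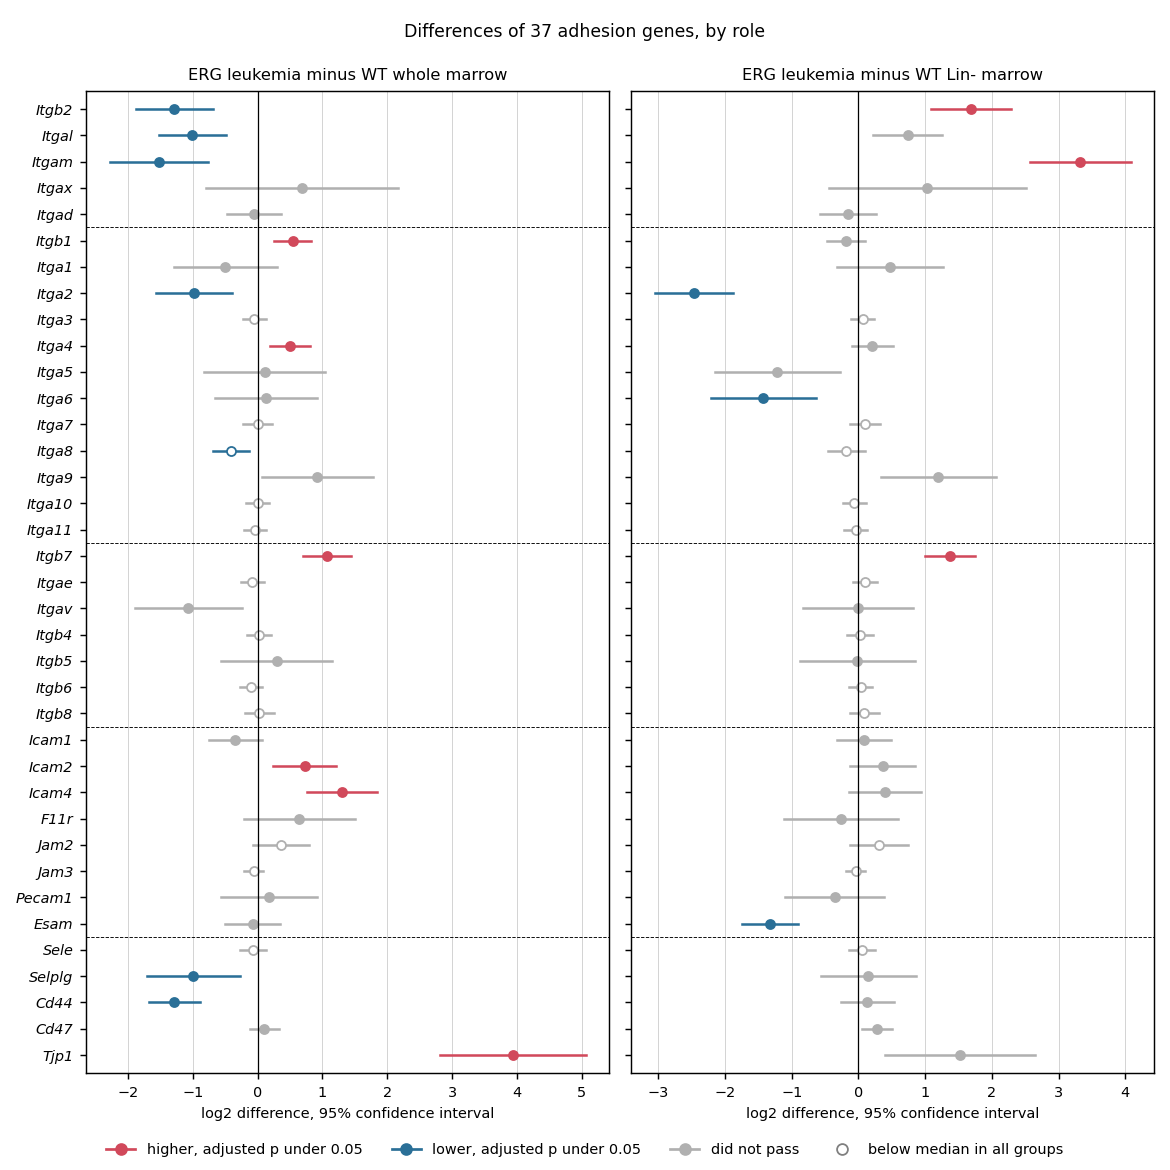
Difference in log2 intensity of each of the 37 genes, leukemia minus whole marrow and leukemia minus lineage-negative pools, with the 95% confidence interval of the limma fit. Red genes passed the threshold as higher, blue as lower and grey did not pass, and open symbols mark genes below the array median in all groups. Tjp1 lies farthest to the right against whole marrow at 3.93, and Itgam against the pools at 3.32.

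Start-site windows from RefSeq (build GRCm38.p6, 250 bases before to 50 after the start) are printed for 5 genes on which the results turn: Itgam, which lay between the wild type groups, Itgb7, Tjp1 and Itga2, whose leukemia arrays lay outside all wild type arrays, and Icam4. They lie at chr7:128062390-128062689 on the plus strand for Itgam, chr15:102231886-102232185 on the minus strand for Itgb7, chr7:65371195-65371494 on the minus strand for Tjp1, chr13:114932051-114932350 on the minus strand for Itga2 and chr9:21029182-21029481 on the plus strand for Icam4. Capitals mark exact matches, on either strand, to CCGGAA or GAGGAA, core sequences of the ETS family to which ERG belongs, and to AGATAA or TGATAA, which GATA factors bind. The 4 motifs do not overlap one another in these windows.
Itgam: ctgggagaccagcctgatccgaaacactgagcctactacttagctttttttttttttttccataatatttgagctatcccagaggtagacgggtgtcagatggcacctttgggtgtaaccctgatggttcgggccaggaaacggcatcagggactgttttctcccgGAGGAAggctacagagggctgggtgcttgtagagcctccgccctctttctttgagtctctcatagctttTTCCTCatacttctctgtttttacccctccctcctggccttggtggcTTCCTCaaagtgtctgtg
Itgb7: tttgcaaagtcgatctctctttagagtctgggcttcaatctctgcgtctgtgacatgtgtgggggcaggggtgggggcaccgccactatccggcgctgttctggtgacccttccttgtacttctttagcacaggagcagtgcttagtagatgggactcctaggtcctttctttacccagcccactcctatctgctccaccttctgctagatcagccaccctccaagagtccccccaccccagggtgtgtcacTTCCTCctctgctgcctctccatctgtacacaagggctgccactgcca
Tjp1: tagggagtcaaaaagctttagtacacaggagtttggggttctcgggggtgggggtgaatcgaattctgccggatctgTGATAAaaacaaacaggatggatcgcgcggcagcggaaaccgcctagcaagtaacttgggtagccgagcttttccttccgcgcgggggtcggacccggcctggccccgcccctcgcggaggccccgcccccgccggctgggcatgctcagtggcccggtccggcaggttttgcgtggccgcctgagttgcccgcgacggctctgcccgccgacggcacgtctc
Itga2: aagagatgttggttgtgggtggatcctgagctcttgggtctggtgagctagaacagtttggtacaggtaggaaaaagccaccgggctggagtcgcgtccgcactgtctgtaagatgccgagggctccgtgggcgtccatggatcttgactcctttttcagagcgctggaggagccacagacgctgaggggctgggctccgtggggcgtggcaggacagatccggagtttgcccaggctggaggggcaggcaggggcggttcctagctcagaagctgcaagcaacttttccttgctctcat
Icam4: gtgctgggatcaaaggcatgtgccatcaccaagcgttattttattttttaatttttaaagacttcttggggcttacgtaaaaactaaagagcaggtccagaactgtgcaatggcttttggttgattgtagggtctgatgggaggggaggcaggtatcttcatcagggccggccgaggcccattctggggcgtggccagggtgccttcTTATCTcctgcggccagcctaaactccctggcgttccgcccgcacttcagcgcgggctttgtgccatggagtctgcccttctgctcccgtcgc
Itgam holds GAGGAA 3 times, at bases 167, 236 and 283 of the window, the last past the start site, and Itgb7 holds it 1 time, at base 253. Tjp1 holds TGATAA at base 78 and Icam4 holds AGATAA at base 208, while Itga2 matched none of the 4. The table held 27 windows of 24 of the 37 genes. Among them 11 (40.7%) held GAGGAA, beside 28.3% of the 32851 windows of all genes, and 5 (18.5%) held CCGGAA, beside 14.9%. AGATAA was in 3 (11.1%, beside 11.2%) and TGATAA in 2 (7.41%, beside 9.05%). A match describes the letters and shows no binding.

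Among the 5 genes of the beta2 family, the shared subunit Itgb2 and the alpha subunits Itgam and Itgal were lower in leukemia than in whole marrow. Itgb2 and Itgam were also higher than in the lineage-negative pools. Itgax and Itgad did not pass in either comparison. The calls made 60.0% of the family against whole marrow and 40.0% against the pools, beside 24.5% and 8.69% of all genes. This family serves adhesion and phagocytosis in mature myeloid cells and adhesion in lymphocytes.

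Itgb2 had a log2 intensity of 10.77, 10.99 and 10.56 in whole marrow samples 1 to 3, of 9.59, 8.93 and 9.95 in leukemias 1 to 3, and of 8.06, 7.42 and 7.94 in lineage-negative pools 1 to 3. The 3 groups did not overlap, with leukemia in the middle. Leukemia was lower than whole marrow by 2.43-fold (log2 difference -1.28 ± 0.26 SE, n = 3, limma adjusted p = 0.00878). It was higher than the lineage-negative pools by 3.21-fold (1.68 ± 0.26, limma adjusted p = 0.00781).

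Itgam codes for CD11b, the alpha chain of the complement receptor CR3. Its log2 intensity was 10.96, 11.06 and 10.67 in whole marrow, 9.75, 8.73 and 9.63 in leukemia and 6.65, 5.48 and 6.01 in the pools, again without overlap. It was 2.87-fold lower in leukemia than in whole marrow (-1.52 ± 0.33, limma adjusted p = 0.0113). The difference from the pools was 3.32 ± 0.33 (limma adjusted p = 0.00125). Lineage depletion kits commonly contain an antibody to CD11b, and the antibodies used here are not given in the labels, so the low level in the pools may belong to the depletion itself and is given as a value. A further 3 probe sets that read Itgam together with Rpl35 were not used.

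Itgal, the alpha chain of LFA-1, had values of 9.18, 8.72 and 8.88 in whole marrow, 8.23, 7.62 and 7.90 in leukemia and 7.45, 6.71 and 7.37 in the pools. Each leukemia lay below every whole marrow sample and above every pool. The difference from whole marrow was -1.01 ± 0.23 (limma adjusted p = 0.0126), and that from the pools, 0.74 ± 0.23, did not pass (limma adjusted p = 0.0849), though it did after 75th percentile centring (0.78, limma adjusted p = 0.036). Itgb2, Itgam and Itgal were the 3 of 37 genes with whole marrow above leukemia above the pools and no overlap (8.1%, beside 3.02% of all genes). None had the reverse order without overlap, which 5.89% of all genes had. Of the 12 neutrophil markers, 8 were lower in leukemia than in whole marrow and 11 were higher than in the pools, and of the 11 monocyte and macrophage markers 0 passed against whole marrow and 5 were higher than in the pools. Of the lymphocyte markers, 9 of 9 for B cells and 7 of 9 for T and NK cells were lower in leukemia than in whole marrow, and none was higher than in the pools. Their part in the beta2 differences was not tested.

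Itgax, which codes for CD11c of dendritic cells and macrophages, read 5.96, 5.26 and 5.72 in whole marrow and 5.79, 4.97 and 5.15 in the pools. Leukemias 1 and 3, at 7.08 and 7.37, lay above all 6 wild type arrays, and leukemia 2, at 4.56, lay below them. Over all 3 leukemias the difference from whole marrow was 0.69 ± 0.65 (limma adjusted p = 0.527). Without leukemia 2 it was 1.58 (limma adjusted p = 0.00673), and 1.92 against the pools (limma adjusted p = 0.00545). Itgad, a further alpha subunit of this family, ranged from 5.45 to 6.26 over all arrays. With the mean of its 2 probe sets in place of the brighter one, its difference from the pools turned from -0.15 to 0.50 and passed (limma adjusted p = 0.0151).

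The beta1 subunit and 11 alpha subunits, most of which pair with it as receptors for matrix proteins, gave 2 higher and 2 lower genes against whole marrow, and 0 higher and 2 lower against the pools. Those calls made 33.3% and 16.7% of the family, beside 24.5% and 8.69% of all genes. Itgb1 and Itga4 were the higher pair, together the subunits of VLA-4, the receptor for VCAM-1. Itga2, which codes for a collagen receptor chain of platelets and other cells, was lower than in both wild type groups. Itga6, which codes for a laminin receptor chain, was lower than in the pools alone.

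Itgb1 read 8.70, 8.62 and 8.81 in whole marrow, 9.35, 9.56 and 9.39 in the pools and 9.47, 8.99 and 9.28 in leukemia. Every leukemia and every pool lay above whole marrow. The leukemia difference from whole marrow was 0.54 ± 0.13 (limma adjusted p = 0.015), and after cyclic loess it was 0.35 and did not pass (limma adjusted p = 0.0604). Against the pools the difference was -0.18, with a 95% interval of -0.47 to 0.10.

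Itga4 read 9.99, 9.82 and 10.32 in whole marrow, 10.16, 10.46 and 10.38 in the pools and 10.54, 10.63 and 10.45 in leukemia. The leukemias lay above whole marrow with no overlap and overlapped the pools. The difference from whole marrow was 0.49 ± 0.13 (limma adjusted p = 0.0283). It did not pass in 7 of the alternatives, among them both rescalings (0.41 and 0.33), the fits without whole marrow sample 1 (0.47) or 2 (0.38) and those without leukemia 1 (0.49) or 2 (0.45).

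Itga2 read 5.89, 5.58 and 5.93 in whole marrow, 7.65, 6.61 and 7.56 in the pools and 4.58, 4.92 and 4.94 in leukemia. All 3 leukemias lay below all 6 wild type arrays and below the median of all probe sets, 5.06, so the size of the difference may be limited by the background. It was the only one of the 37 genes with that order, 3.33% of all genes having it. The difference was -2.46 ± 0.26 from the pools (limma adjusted p = 0.00155) and -0.99 ± 0.26 from whole marrow (limma adjusted p = 0.0239). The latter was lost without whole marrow sample 1 (-0.94), sample 3 (-0.92) or leukemia 1 (-0.87).

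Itga6 read 7.46, 6.71 and 6.94 in whole marrow, 8.99, 8.10 and 8.70 in the pools and 6.85, 7.90 and 6.76 in leukemia. Leukemias 1 and 3 lay among the whole marrow samples, and leukemia 2 lay just under the lowest pool. The difference from the pools was -1.42 ± 0.35 (limma adjusted p = 0.0393) and did not pass in 8 of the alternatives. It was -1.42 without whole marrow sample 1 or 3, -1.23 without pool 1, -1.38 without pool 3, -1.26 without leukemia 1 and -1.22 without leukemia 3. The platelet partner subunit Itgb3 was lower in leukemia than in the pools (-2.80 ± 0.30, limma adjusted p = 0.00159) and than in whole marrow (-1.47, limma adjusted p = 0.00813). Its partner Itga2b passed in neither comparison, at -0.44 from the pools (limma adjusted p = 0.683) and 1.38 from whole marrow (0.0619). Of the 8 megakaryocyte and platelet markers, 4 were lower in leukemia than in the pools and 0 higher. Against whole marrow, 3 of them were lower and 1 higher. Of the 10 eosinophil, basophil and mast cell markers, 9 were lower and 0 higher than in whole marrow. Against the pools, 7 of those were lower and 1 higher. Of the 9 T and NK cell markers, 7 were lower than in whole marrow and 1 was lower than in the pools, with 0 higher in either. The part of these 3 lists in the Itga2 and Itga6 differences was not tested.

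Itga5, the fibronectin receptor alpha chain, read 6.39, 6.44 and 6.10 in whole marrow, 7.75, 7.58 and 7.59 in the pools and 7.17, 5.27 and 6.82 in leukemia. Leukemias 1 and 3 lay above whole marrow and leukemia 2 below it. No leukemia comparison of Itga5 passed over all 3 mice. Without leukemia 2 the differences were 0.69 from whole marrow (limma adjusted p = 0.0134) and -0.64 from the pools (0.0321). Itga1, the alpha chain of another collagen receptor, passed in no comparison and read 6.51 to 7.22, 5.43 to 6.29 and 5.58 to 6.83 in whole marrow, pools and leukemia. Its difference from whole marrow was -0.50 over all 3 leukemias and -0.12 without leukemia 2.

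Itga3, Itga7, Itga8, Itga10 and Itga11 had group means below the median of all probe sets in all 3 groups, and their values may be mostly background. Itga8, at that level, was lower in leukemia than in whole marrow (-0.41 ± 0.12, limma adjusted p = 0.0388). It did not pass in 9 of the alternatives, among them the fits without any 1 leukemia (-0.39 to -0.44), whole marrow sample 1 (-0.30) or 3 (-0.42), or pool 1 or 3 (-0.41). The other 4 passed in no comparison.

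Itgb7 was higher in leukemia than in every wild type sample. It codes for the beta7 subunit, which joins alpha4 to make the gut homing receptor for MAdCAM-1 and joins alphaE to bind E-cadherin. Its log2 intensity was 7.33, 7.28 and 7.32 in whole marrow, 7.07, 6.95 and 6.99 in the pools and 7.97, 8.75 and 8.41 in leukemia. The lowest leukemia exceeded the highest wild type array by more than the whole range among the wild type arrays.

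The difference in Itgb7 was 1.07 ± 0.17 from whole marrow (2.10-fold, limma adjusted p = 0.00267) and 1.37 ± 0.17 from the pools (2.59-fold, limma adjusted p = 0.00285). It was the only gene of the 37 that was called higher over all 3 leukemias against both wild type groups, and it passed under every alternative in both. Together with Tjp1 it made 2 of 37 genes with all leukemias above all wild type arrays, an order that 2.36% of all genes had. Of the alpha subunits with which it pairs, Itga4 was higher than in whole marrow (0.49) and did not pass against the pools (0.21, limma adjusted p = 0.444), and Itgae was below the median in all groups.

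Itgav, the vitronectin receptor alpha chain, read 7.61, 7.60 and 7.43 in whole marrow, 6.90, 6.07 and 6.49 in the pools and 6.82, 5.56 and 7.05 in leukemia. Leukemias and pools all lay below whole marrow, but the leukemia difference of -1.07 ± 0.36 did not pass (limma adjusted p = 0.0635). It passed in 5 alternatives, among them 75th percentile centring (-1.15), cyclic loess (-1.22) and the fit without leukemia 3 (-1.36). Without leukemia 2, the lowest leukemia, it was -0.61 and did not pass (limma adjusted p = 0.0843). Itgb5, which codes for a beta partner of the alphaV chain, read 5.70 to 5.95, 5.53 to 6.51 and 5.24 to 6.75 in whole marrow, pools and leukemia and passed nowhere. Its difference from whole marrow was 0.29, and 0.72 without leukemia 2 (limma adjusted p = 0.107). Itgb4, Itgb6 and Itgb8, which code for beta subunits best known from epithelia and neural tissue, stayed below the median in all 3 groups.

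**Figure D3:**
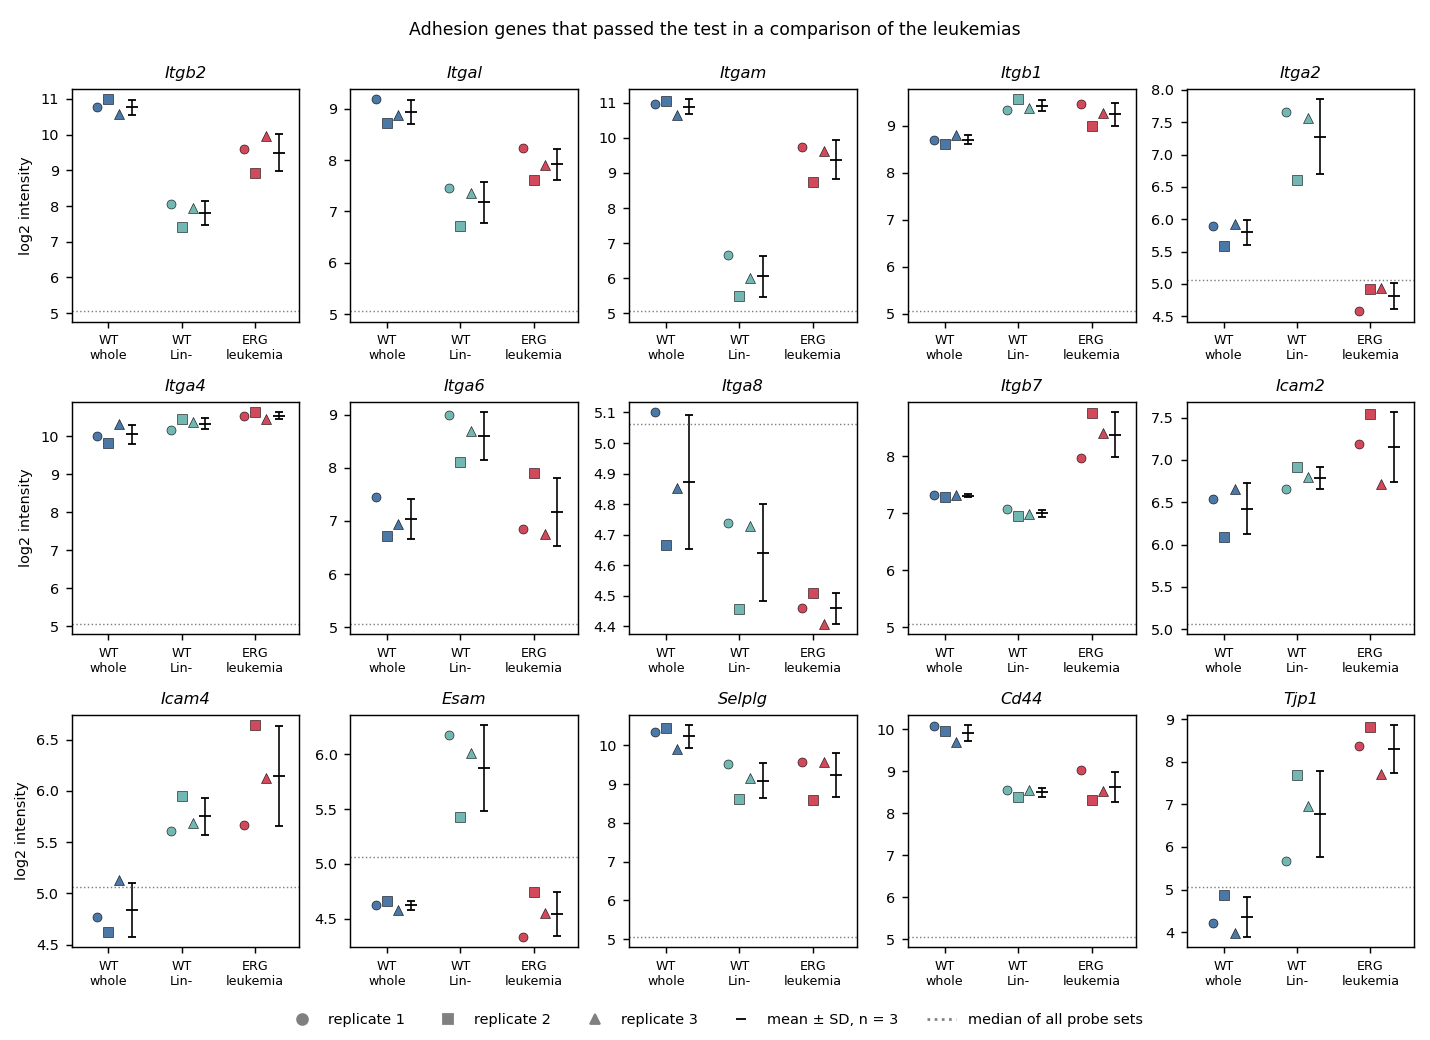
Log2 intensity on each of the 9 arrays for the 15 genes called in at least 1 leukemia comparison, with group means and SD (n = 3) and a dotted line at the median of all probe sets, 5.06. Leukemia points of Itgb7 and Tjp1 lie above, and those of Itga2 below, all 6 wild type points.

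Of 8 immunoglobulin-type adhesion genes, Icam4 and Icam2 were higher in leukemia than in whole marrow, and Esam was lower than in the pools. These shares, 25.0% and 12.5% of the list, stand beside 24.5% and 8.69% of all genes. Icam4 codes for the Landsteiner-Wiener glycoprotein of red cell precursors, which binds integrins and takes part in erythroblast contacts. It read 4.77, 4.62 and 5.13 in whole marrow, 5.61, 5.95 and 5.69 in the pools and 5.67, 6.64 and 6.12 in leukemia. All leukemias lay above whole marrow and overlapped the pools.

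The difference in Icam4 was 1.30 ± 0.24 from whole marrow (2.47-fold, limma adjusted p = 0.00506). Its whole marrow mean, 4.84, lay under the median of all probe sets, so the size may be limited by the background. From the pools the difference was 0.39, with a 95% interval of -0.14 to 0.93. Among 10 erythroid markers, 7 were higher in leukemia than in whole marrow and 0 passed against the pools. Leukemia 2 had both the highest Icam4 value and the highest erythroid sum, 9340.6, beside 5172.6 in leukemia 1 and 8241.3 in leukemia 3. The part of the erythroid genes in the Icam4 difference was not tested.

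Icam2, a ligand of LFA-1, read 6.54, 6.09 and 6.65 in whole marrow, 6.65, 6.91 and 6.80 in the pools and 7.19, 7.54 and 6.72 in leukemia. Each leukemia lay above whole marrow, leukemia 3 by the least. The difference of 0.73 ± 0.21 (limma adjusted p = 0.0388) did not pass in 9 of the alternatives. These were cyclic loess (0.58), the compared groups alone, and the fits without any 1 pool (0.73), whole marrow sample 1 (0.78) or 2 (0.56), or leukemia 1 (0.70) or 2 (0.53). Icam1, a ligand of LFA-1 and of CD11b with beta2, ranged from 5.26 to 6.08 and passed in no comparison.

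Esam, an adhesion molecule of endothelium, megakaryocytes and blood stem cells, read 6.17, 5.43 and 6.01 in the pools. In whole marrow it read 4.62, 4.66 and 4.58, and in leukemia 4.34, 4.74 and 4.55, all under the median. The leukemia difference from the pools was -1.33 ± 0.18 (2.51-fold, limma adjusted p = 0.00491), and from whole marrow -0.08, with a 95% interval of -0.50 to 0.34. Of 10 endothelial markers, 10 were below the median in whole marrow, 8 in leukemia and 6 in the pools. Cdh5, Kdr, Flt1, Cldn5, Stab2 and Ptprb were below it in all groups. In leukemia, 2 of the endothelial markers (Tie1 and Emcn), 4 of 8 megakaryocyte and platelet markers and 5 of 11 stem and progenitor markers were lower than in the pools, and 0 of the 3 lists were higher. Their part in the Esam difference was not tested.

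Pecam1, which codes for an adhesion molecule of endothelium, platelets and leukocytes, passed in no comparison and spanned 6.77 to 8.13 over all arrays. F11r, a junctional adhesion molecule of platelets and epithelia, read 4.30, 4.65 and 4.21 in whole marrow, 5.68, 4.84 and 5.36 in the pools and 5.18, 4.15 and 5.75 in leukemia. Its difference from whole marrow was 0.64 ± 0.38 (limma adjusted p = 0.278), and without leukemia 2 it was 1.08 (0.0253). Whole marrow lay under the median of all probe sets for F11r, so the size may be limited by the background. Jam2 and Jam3 had group means below the median in all groups. Jam2 read 5.29 in leukemia 2 and at most 4.64 on every other array.

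The PSGL-1 gene Selplg and Cd44 were lower in leukemia than in whole marrow, Tjp1 was higher, and neither Cd47 nor Sele passed. In the same comparison, 8 of 12 neutrophil, 9 of 9 B cell and 7 of 9 T and NK cell markers were lower. So were 9 of 10 eosinophil, basophil and mast cell markers, whereas 0 of 11 monocyte and macrophage markers passed. Against the pools, 11 of 12 neutrophil and 5 of 11 monocyte and macrophage markers were higher. There, 7 of the 10 eosinophil, basophil and mast cell markers were lower and 1 higher. The part of these lists in the Selplg and Cd44 differences was not tested. Of these 5 genes (Selplg, Cd44, Tjp1, Cd47 and Sele), 60.0% passed against whole marrow, beside 24.5% of all genes. None passed between leukemia and the pools, beside 8.69% of all genes. Cd44 read 10.08, 9.95 and 9.71 in whole marrow, 8.55, 8.38 and 8.56 in the pools and 9.03, 8.33 and 8.52 in leukemia. Whole marrow stood above both other groups, which overlapped. The difference from whole marrow was -1.28 ± 0.17 (2.44-fold, limma adjusted p = 0.00166), and that from the pools was 0.13, with a 95% interval of -0.27 to 0.53.

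Selplg read 10.34, 10.46 and 9.91 in whole marrow, 9.51, 8.62 and 9.15 in the pools and 9.58, 8.59 and 9.56 in leukemia. Its difference from whole marrow was -0.99 ± 0.31 (limma adjusted p = 0.0494). It did not pass in 7 of the alternatives, among them the fits without whole marrow sample 1 (-0.94), 2 (-0.88) or 3 (-1.16), pool 3 (-0.99), or leukemia 2 (-0.66) or 3 (-1.15). Against the pools it was 0.15, with a 95% interval of -0.56 to 0.86. Cd47, the signal that keeps macrophages from engulfing a cell, lay between 10.20 and 10.68 on all 9 arrays. Its difference was 0.10 from whole marrow, with a 95% interval of -0.12 to 0.33. From the pools it was 0.28, with a 95% interval of 0.06 to 0.51. All leukemias lay above all pools, but that difference did not pass (limma adjusted p = 0.126). Sele, the endothelial selectin, was below the median in all groups.

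Tjp1 codes for ZO-1, a scaffold under tight junctions, and had the largest difference of the 37 genes from whole marrow. It read 4.22, 4.88 and 3.99 in whole marrow, 5.68, 7.68 and 6.97 in the pools and 8.36, 8.82 and 7.71 in leukemia. All leukemias lay above all wild type arrays and leukemia 3 lay only just above pool 2. The difference from whole marrow was 3.93 ± 0.49 (15.3-fold, limma adjusted p = 0.00128), and since whole marrow lay under the median, its size may be limited by the background. The difference from the pools, 1.52 ± 0.49, did not pass (limma adjusted p = 0.101). The erythroid sum was also higher in leukemia and the pools than in whole marrow. Among the leukemias, both the sum and Tjp1 were highest in leukemia 2. The sum was higher in leukemia 3 (8241.3) than in leukemia 1 (5172.6), whereas Tjp1 was lower in leukemia 3. The part of the erythroid genes in the Tjp1 difference was not tested.

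The adhesion genes varied among the leukemias, and to a lesser extent among the pools. The median SD of the 37 genes was 0.39 among leukemias, 0.16 in whole marrow and 0.15 in the pools, beside 0.13, 0.13 and 0.10 for all genes. The SD passed 0.5 in 12 genes among leukemias, 4 in the pools and 0 in whole marrow. That count was not taken over all genes, so it has no share to stand beside. Among the 25 genes with a group mean above the median of all probe sets, the median SD was 0.49 among leukemias, 0.39 in the pools and 0.20 in whole marrow. For all genes above that median it was 0.19, 0.14 and 0.17 in the same order. Each pool averages 3 mice, whereas a leukemia or whole marrow array holds 1.

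Leukemia 2 lay at least 1 log2 unit below both other leukemias in Itgax, Itga1, Itga5, Itga9, Itgav, Itgb5 and F11r. Those 7 genes are 18.9% of the members, beside 1.85% of all genes. It lay as far above both in Itga6, 1 of 37 (2.7%, beside 0.346%). Neither leukemia 1 nor leukemia 3 stood that far from the others in any of the 37, as they did in 0.657% and 0.206% of all genes.

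Itga9, the alpha9 chain that binds tenascin and osteopontin, shows the split. It read 5.55 and 6.14 in leukemias 1 and 3 and 4.29 in leukemia 2, beside 4.34 to 4.44 in whole marrow and 4.10 to 4.20 in the pools. The difference was 0.92 ± 0.38 from whole marrow (limma adjusted p = 0.118) and 1.20 ± 0.38 from the pools (0.0923). Without leukemia 2 it was 1.44 (limma adjusted p = 0.00169) and 1.72 (0.000766). Both wild type groups lay under the median of all probe sets for Itga9, so these sizes may be limited by the background. The monocyte and macrophage sum was 3865.4 and 4150.0 in leukemias 1 and 3 and 1499.6 in leukemia 2, and the megakaryocyte sum was 797.2, 1526.2 and 3000.8 in leukemias 1, 3 and 2. Their part in the spread was not tested.

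**Figure D4:**
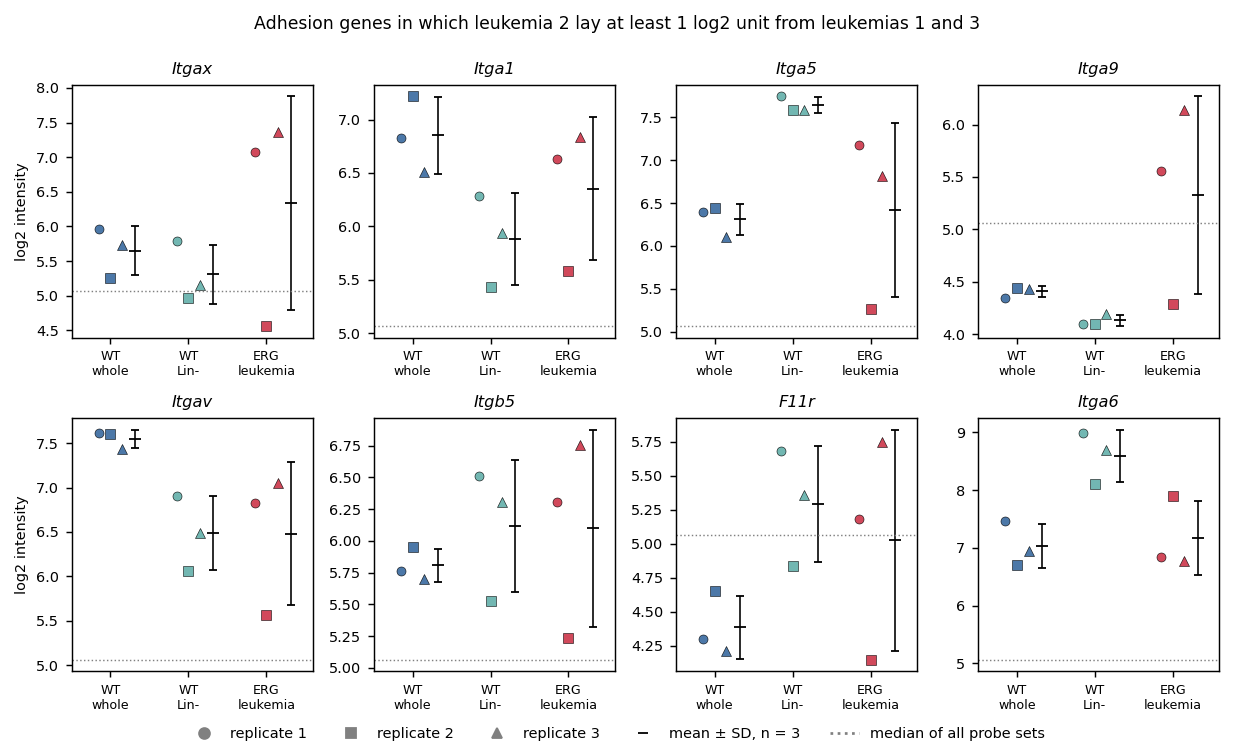
Log2 intensity of the 8 genes in which leukemia 2 lay at least 1 unit from both other leukemias, for each of the 9 arrays. In 7 genes leukemia 2 is the lowest leukemia, and in Itga6 it is the highest.

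Between the wild type groups, 12 of 37 genes differed, 32.4% of the members beside 34.7% of all genes (21.7% higher and 13% lower in the pools). Tjp1, Itga6, Itga2, Itga5, Esam, Icam4 and Itgb1 were higher in the pools, and Itgam, Itgb2, Itgal, Cd44 and Selplg lower. The members' median was -0.06, beside -0.04 for all genes. The arrays did not overlap in 21 of the 37 genes, beside 50% of all genes. Higher genes made up 62.6% of all calls as deposited, 50.3% after 75th percentile centring, which moved the median of all genes to -0.16, and 51.2% after cyclic loess. The largest higher difference was 2.42 ± 0.49 for Tjp1 (limma adjusted p = 0.00499). The lower differences reached -2.96 ± 0.26 for Itgb2 (limma adjusted p = 0.000107) and -4.85 for Itgam, whose product the depletion may have targeted. Esam was 1.25 ± 0.18 higher (limma adjusted p = 0.000952) and Itga2 1.48 ± 0.26 higher (0.00225). The count of lower genes rose to 8 after 75th percentile centring and to 10 after cyclic loess. Of the higher genes, Itga5 did not pass in 7 alternatives, which included each single whole marrow sample or pool left out (1.23 to 1.39). Icam4 did not pass without whole marrow sample 1 (0.88) or 2 (0.80) or pool 2 (0.81), and Selplg among the lower genes did not without whole marrow sample 1 (-1.09) or 2 (-1.03) or pool 2 (-0.90) or 3 (-1.17).

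Many genes that switch integrins on and link them to the cytoskeleton were lower in leukemia than in whole marrow, and many were lower in the wild type pools too. Of 36 measured, 17 were lower and 2 higher in leukemia, with a median of -0.51 beside -0.02 for all genes. Over all genes 9.93% were lower and 14.6% higher, and without whole marrow sample 1 the list's lower count was 11. The neutrophil, B cell, T and NK cell markers that were lower in the same comparison (8 of 12, 9 of 9 and 7 of 9) were not tested for their part in it. Of 11 monocyte and macrophage markers, 0 passed in that comparison. The list's higher count was 1 without any 1 wild type array or without leukemia 2 or 3. Examples were Syk at -1.76 ± 0.37 (limma adjusted p = 0.00931) and Vav3 at -1.70 ± 0.36 (0.00954), a kinase and an exchange factor downstream of integrins. Fgr, a Src-family kinase of myeloid cells, was at -1.62 ± 0.38 (limma adjusted p = 0.0157) and did not pass without whole marrow sample 1 (-1.56) or 2 (-1.50). In the wild type pools, 22 of the 36 were lower than in whole marrow and 2 higher, with a median of -0.48 beside -0.04 for all genes. Over all genes, 13% were lower and 21.7% higher between those wild type groups. In leukemia against the pools, 4 were higher and 1 lower, beside 2.95% and 5.74% of all genes. Fgr was 2.63 higher (limma adjusted p = 0.00582), as was the GTPase gene Rac2 by 0.74 (0.00631), and Src was lower (-1.17 ± 0.11, limma adjusted p = 0.000924). The pool mean of Fgr, 4.65, and the leukemia mean of Src, 4.50, lay under the median of all probe sets. The sizes of those differences may be limited by the background.

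Fermt3, which codes for kindlin-3, the kindlin of blood cells, went against that direction. It read 8.88, 9.06 and 8.67 in whole marrow, 8.97, 9.13 and 9.14 in the pools and 9.66, 10.16 and 9.65 in leukemia, all leukemias above all wild type arrays. The difference was 0.96 ± 0.15 from whole marrow (limma adjusted p = 0.00318). From the pools it was 0.74 ± 0.15 (limma adjusted p = 0.0229), which did not pass without pool 1 (0.69), 2 (0.77) or 3 (0.77). Parvb, a parvin that joins the integrin-linked kinase, was the other higher gene, by 1.14 ± 0.35 (limma adjusted p = 0.0448), and did not pass in 10 alternatives, with 0.72 without leukemia 2 as the lowest value.

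Of 18 genes that build or sulfate the sugars bound by selectins, or carry them, 4 were higher and 3 lower than in whole marrow, and 1 was higher and 1 lower than in the pools. These shares, 38.9% and 11.1% of the list, stand beside 24.5% and 8.69% of all genes. Against whole marrow, 2 were higher without whole marrow sample 1 or 3 or leukemia 2 or 3, and 1 was lower without whole marrow sample 1 or 2. Fut7, the fucosyltransferase that finishes the selectin-binding sugar in leukocytes, was lower (-0.68 ± 0.19, limma adjusted p = 0.0306), as was Gcnt1, which starts the branch that carries it (-1.03 ± 0.28, limma adjusted p = 0.028). Without whole marrow sample 1 or 2 neither passed, at -0.55 and -0.69 for Fut7 and -0.86 and -1.11 for Gcnt1. Fut7 also did not pass without pool 3 (-0.68) or any 1 leukemia (-0.65 to -0.70). Its leukemia mean, 4.88, lay under the median of all probe sets, so the size may be limited by the background. B4galt1 gave -0.56 ± 0.11 (limma adjusted p = 0.00621). The sialyltransferase gene St3gal3 was higher by 0.67 ± 0.13 (limma adjusted p = 0.00816) and Podxl, which codes for a sialomucin, by 3.02 ± 0.88 (0.0364), the latter not passing without any 1 whole marrow sample (2.98 to 3.06), leukemia 2 (2.59) or leukemia 3 (3.08). The whole marrow mean of Podxl, 4.29, lay under the median of all probe sets, so the size may be limited by the background. Podxl read 6.56, 8.17 and 7.20 in leukemias 1 to 3 and 4.37, 8.11 and 4.67 in pools 1 to 3. Tpst2, which codes for a tyrosine sulfotransferase acting on PSGL-1, was 0.68 ± 0.14 higher than in the pools (limma adjusted p = 0.0222) and did not pass without any 1 of the pools (0.65 to 0.70).

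Of 26 ligands and counter-receptors, 1 was higher and 2 were lower than in whole marrow, and 2 were higher and 1 lower than in the pools. That is 11.5% of the list in each comparison, beside 24.5% and 8.69% of all genes. The higher count against whole marrow was 0 without any 1 wild type array or leukemia 3, and the lower count was 1 without whole marrow sample 3 or any 1 leukemia. Against the pools, the higher count was 1 without whole marrow sample 1, pool 2 or 3, or leukemia 1 or 3. Vcam1, the ligand of alpha4 with beta1 on marrow stroma and macrophages, was 2.97-fold lower than in whole marrow (-1.57 ± 0.28, limma adjusted p = 0.00452). Fn1, fibronectin, was 9.75-fold higher in leukemia than in the pools (3.29 ± 0.36, limma adjusted p = 0.0017), with group means of 10.45 in whole marrow, 7.56 in the pools and 10.84 in leukemia. Sirpa, the CD47 receptor of myeloid cells, was 1.28 ± 0.30 higher than in the pools (limma adjusted p = 0.0347), which was lost without whole marrow sample 1 (1.28), pool 2 (1.05) or 3 (1.29), or leukemia 1 (1.15) or 3 (1.09). Cdh1, the E-cadherin gene, gave -1.87 ± 0.27 from the pools (limma adjusted p = 0.00585). Its leukemia mean, 4.81, lay under the median of all probe sets, so the size may be limited by the background.

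Of 19 tight junction and scaffold genes other than Tjp1, 2 were higher and 5 lower than in whole marrow, beside 14.6% and 9.93% of all genes. The lower count was 2 without whole marrow sample 1, pool 3 or any 1 leukemia, and 3 without whole marrow sample 2 or pool 1. Cldn13 was 1.69 ± 0.40 higher (limma adjusted p = 0.016) and Marveld2, which codes for tricellulin, 0.55 ± 0.14 higher (0.0182). Marveld2 did not pass without whole marrow sample 3 (0.52) or leukemia 1 or 2 (0.47). Magi3, a scaffold gene, gave -1.41 ± 0.11 (limma adjusted p = 0.000456). Cldn1 was lower than in whole marrow (-1.78 ± 0.40, limma adjusted p = 0.0125) and higher than in the pools (1.82 ± 0.40, limma adjusted p = 0.0277), the latter lost without pool 2 (1.69) or 3 (1.73). The pool mean of Cldn1, 4.62, lay under the median of all probe sets, so the latter size may be limited by the background. In the wild type pools, 3 of the 19 were higher than in whole marrow and 5 lower, beside 21.7% and 13% of all genes. Cldn13 was among those higher, and Magi3 and Cldn1 among those lower.

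Among 26 other adhesion receptors, 14 were lower and 2 higher than in whole marrow, beside 9.93% and 14.6% of all genes. The lower count was 7 without whole marrow sample 1, 9 without sample 2 or 3 and 8 without leukemia 2. Markers of neutrophils, B cells, T and NK cells and eosinophils were lower in the same comparison, and their part in it was not tested. Of 11 monocyte and macrophage markers, 0 passed there. Ncam1 gave -1.82 ± 0.29 (limma adjusted p = 0.00289), the tetraspanin gene Cd9 gave -1.74 ± 0.26 (0.00248), and Spn, which codes for the sialomucin CD43, was 0.56 ± 0.09 higher (0.0031). Against the pools 7 were lower and 2 higher, beside 5.74% and 2.95% of all genes. The higher count was 1 without whole marrow sample 1, any 1 pool, or leukemia 1 or 3. The stem and progenitor marker Cd34 gave -2.50 ± 0.28 (limma adjusted p = 0.00197) and Cd226 gave -2.09 ± 0.32 (0.00738). Itgb2l, a beta2-like integrin gene, lay between the wild type groups, at -1.66 ± 0.40 from whole marrow (limma adjusted p = 0.017) and 2.40 ± 0.40 from the pools (0.00953). Its pool mean, 4.83, lay under the median of all probe sets, so the latter size may be limited by the background.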

How the data were processed

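Marrow RNA of 9 samples was hybridised to Affymetrix whole-transcript arrays of 28853 probe sets. The authors deposited linear intensity values from RMA, run in Partek per the submitters' processing notes, with versions not given in the sources used here. The design assumed log2 values, so the intensities were log2-transformed with no further normalization. Platform annotation, with symbols updated through Entrez identifiers, gave 21789 probe sets 1 symbol, 1621 several and 5443 none, and 19938 genes were tested. Of these, 19856 were in RefSeq's gene table, and 999 genes had more than 1 probe set.

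One linear model over the 3 groups was fitted with limma 3.58.1 (lmFit, eBayes) in R 4.3.3, and p-values were adjusted by Benjamini-Hochberg over all genes, with a threshold of 0.05. Errors beside differences are SE, and those on group means are SD (n = 3). Fold changes are of log2 means. Leukemias are numbered in accession order, and leukemias 1 and 2 have titles that differ by 1 final digit, though the design notes count 3 mice. With 3 samples a group, the number of arrays limits the precision. The scripts were tested on simulated data. Alternatives were 75th percentile centring, cyclic loess, the compared groups alone, an intensity trend, bright genes alone, the mean of probe sets, a replicate block and each array left out. The members and lists were chosen with earlier results of these data known. From the lists, the genes named were the 3 lower and 3 higher genes with the largest called difference in each leukemia comparison, with the partner subunits Itga2b and Itgb3. Examples are printed here. Plots were drawn with matplotlib 3.10.9.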

Additional observations from a re-analysis of the deposited data

How the results depend on the processing

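Counts of members called moved by over 1.5 times in these cases. Against whole marrow, 3 members were higher after cyclic loess (6 as deposited), and leaving out 1 array gave 4 to 8 higher and 4 to 7 lower, with 4 lower without whole marrow sample 1 or 3. Against the pools, 5 were higher after 75th percentile centring or without leukemia 2 (3 as deposited), with 3 to 5 over single arrays left out. Between pools and whole marrow, lower members numbered 5 as deposited, 8 after 75th percentile centring, 10 after cyclic loess, 10 with those groups alone and 4 to 8 with 1 array left out, 8 being the count without leukemia 2. Over all genes, 1980 were lower in leukemia than in whole marrow, and 1248 without whole marrow sample 1. Against the pools, 589 were higher and 1144 lower, with ranges of 268 to 827 and 490 to 1174 over single arrays left out.

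Signs were followed for the member differences of at least 0.5 or called in some setting, and for the other genes named. Among these they turned for 3 genes, none past the threshold as deposited. Another 58 member differences were under 0.5 and called under no setting, and 28 of them changed sign in some setting. Itga5 against whole marrow went from 0.11 to -0.039 after cyclic loess and from -0.27 to 0.69 with 1 array left out. Itgad against the pools went from -0.15 to 0.50 with the mean of its probe sets, and from -0.38 to 0.0275 with 1 array left out. Itgad between the wild type groups went from 0.09 to -0.0311 after 75th percentile centring, -0.0627 after cyclic loess and -0.28 with the mean of its probe sets. Itga2b against the pools went from -0.44 to a range of -0.998 to 0.0433 with 1 array left out. The causes were not tested. Deviations of wild type samples of the same number from their group means correlated at 0.31, -0.01 and -0.01, the first being the highest of all combinations. The pools came from other mice than the whole marrow samples, so the numbers pair no mice. With 3 samples a group, these correlations cannot show whether the numbers carry other shared handling. With the replicate block 9 members were lower in the pools.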
